A study of Homo sapiens with 5 samples.

Results

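The respiratory chain was examined in NCI-H209, an established human small-cell lung cancer (SCLC) line, through the genes that encode its subunits. Genes were taken by name: NDUFA, NDUFB, NDUFC, NDUFS and NDUFV genes followed by a digit for complex I, SDHA to SDHD for complex II, UQCR names for complex III, COX4 to COX8 names for complex IV, ATP5 names for the ATP synthase (complex V), and the protein-coding genes of the mitochondrial genome. Of 140 matching names, 37 pseudogenes and 5 antisense or divergent transcripts were left out, which gave 98 gene entries of 64837 counted. They comprised 43 entries of complex I, 4 of complex II, 11 of complex III, 18 of complex IV and 22 of complex V, with 85 in the nucleus and 13 on the mitochondrial genome. NDUFA4 and NDUFA4L2 were placed in complex IV, to which NDUFA4 belongs despite its name.

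RNA of NCI-H209 was read in 3 control libraries, labelled untreated, and in 2 libraries of cells kept for 24 h with human brain microvascular endothelial cells (HBMECs). The HBMECs sat in a Transwell insert and shared the medium. The co-cultured group was thus the tumor cells alone, harvested after sharing medium, and whether the control wells held an empty insert is not stated. Total RNA was depleted of ribosomal RNA and made into directional libraries, and reads were counted per gene. Labels do not say whether replicates were separate cultures, so p-values measure the spread between these libraries, which may be technical.

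Electrons from NADH and succinate enter the chain at complexes I and II, pass through ubiquinone to complex III and then by cytochrome c to complex IV, where oxygen is reduced. Complexes I, III and IV pump protons across the inner membrane, and complex V uses that gradient to make ATP. Complex II is built from nuclear genes alone, whereas the other complexes combine nuclear subunits with a small membrane core read from mitochondrial DNA. At low oxygen, cells are known to exchange some complex IV subunits for paralogs, among them COX4I2 and NDUFA4L2.

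Libraries held 15457071 to 19157348 counts on genes. Control replicate 1 stood apart from the other control libraries along the second principal component, and the share of reads left unmapped was 8.13% to 8.48% in control libraries against 15.9% and 16.8% after co-culture. Of 10 markers of this neuroendocrine line, 9 were measured and 1, CHGA, was at or under 3 counts in every library. The 15 markers of endothelial cells summed to 10.3 to 20.3 CPM (read counts scaled to a common, normalized library size) in control and to 13.4 and 13.7 CPM in co-cultured libraries, with 4 of them at or under 3 counts throughout. Of the 8 endothelial markers with enough counts to be tested, ESAM alone was called, at 0.160, 0.221 and 0.307 CPM in control and 1.15 and 0.925 CPM in co-cultured libraries. KDR and TEK were called lower only without control replicate 3, with the replicate block and with a filter of at least 1 count in any library. The part of other cells in the results below was not tested.

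Subunit genes moved both ways in co-cultured NCI-H209 cells. Of the 94 entries that passed the filter on low counts, 12 rose and 13 fell in edgeR's quasi-likelihood test, at a Benjamini-Hochberg adjusted p under 0.05 over all genes. Together these made 25 of 94, where 33.4% of all 20360 genes tested were called. By direction, 18.4% of all genes were called higher and 15.0% lower. The groups did not overlap for 57 of the 94, against 59.4% of all genes. The median log2 fold change (co-cultured against control) was 0.02 for the 94 entries and -0.03 for all genes.

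Split by genome, the values parted. All 12 rises were of nuclear genes, and 8 of the 13 falls were of mitochondrial genes. The 81 nuclear entries tested had a median log2 fold change of 0.08, with 12 higher and 5 lower, and the 13 mitochondrial genes had a median of -0.87, with 8 lower and the other 5 not called. A stricter size threshold, a log2 fold change beyond 1 in either direction at an unadjusted p under 0.05, was met by 4 of the 94, all mitochondrial (MT-ND6, MT-CO2, MT-ND3 and MT-ND2), against 10.5% of all genes. In bulk RNA, fewer cells that express a gene and less RNA per cell cannot be told apart.

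**Figure D1:**
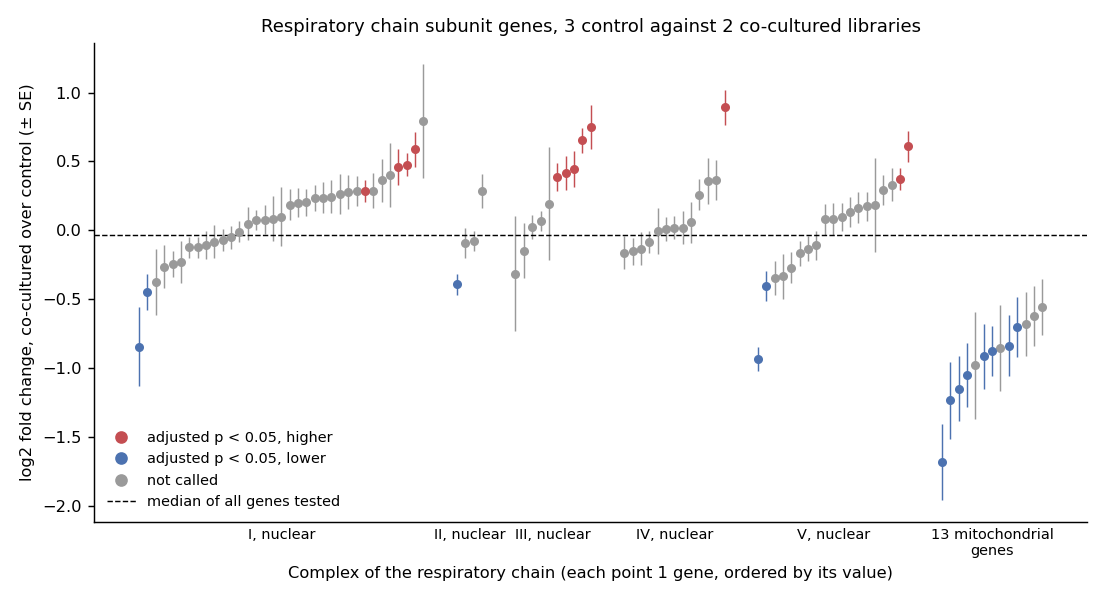
Log2 fold change, co-cultured against control (y axis, bars are standard errors) for the 94 subunit genes tested, grouped by complex and genome along the x axis and ordered by value within each group. Red points are genes higher and blue points genes lower at an adjusted p under 0.05, grey points were not called, and the dashed line is the median of all genes tested, -0.03. The 13 mitochondrial genes all lie at -0.56 or lower, and the nuclear genes lie between -0.94 and 0.89.

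The mitochondrial genome encodes 7 subunits of complex I, cytochrome b of complex III, 3 catalytic core subunits of complex IV and 2 membrane subunits of complex V. Each of these 13 mRNAs was lower in both co-cultured libraries than in any control library, as were 6101 of all 20360 genes tested. The share of gene counts on the 13 mRNAs was 3.85%, 2.54% and 2.25% in control against 1.49% and 1.79% in co-cultured libraries, with a log2 ratio of the group means of -0.81. Control replicate 1 was the highest of the 5, and without it this ratio was -0.54. Reads on mitochondrial tRNAs numbered 511, 266 and 418 in control against 136 and 117 in co-cultured libraries, and those on the mitochondrial rRNAs, which the depletion targets, 2 to 409 in all libraries.

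MT-ND6, a membrane subunit of complex I, is the only one of these mRNAs encoded on the light strand (chrM:14149-14673). It had 524, 347 and 249.7 CPM in control and 97.2 and 136 CPM in co-cultured libraries. Its highest co-cultured value lay below its lowest control value. The log2 fold change was -1.68 (SE 0.28, adjusted p = 0.00199, edgeR), with a range of -1.94 to -1.36 when each library was left out. Counted without regard to strand, its log2 fold change was -0.87.

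Among the heavy-strand subunits of complex I, MT-ND3 fell from 856, 558 and 458 CPM to 244 and 318 CPM, a log2 fold change of -1.15 (SE 0.24, adjusted p = 0.00570, edgeR). MT-ND2 fell by 1.05 on the log2 scale, MT-ND1 by 0.92, MT-ND4L by 0.87 and MT-ND5 by 0.84, with adjusted p-values of 0.00613 to 0.0170 in edgeR. MT-ND4, the most abundant of the complex I mRNAs in CPM per kb of exon (3304 CPM per kb in control), had 6271, 3847 and 3542 CPM in control and 2773 and 3140.0 CPM in co-cultured libraries. Its difference of -0.62 was not called (adjusted p = 0.0547, edgeR).

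In complex IV, MT-CO2, which carries the copper site that accepts electrons from cytochrome c, fell from 2871, 1589 and 1423 CPM to 715 and 950.3 CPM, a log2 fold change of -1.24 (SE 0.28, adjusted p = 0.00853, edgeR). MT-CO3 fell by 0.70 (adjusted p = 0.0354, edgeR). MT-CO1, which holds the oxygen-reducing site, had 9438, 5913 and 5690.3 CPM in control and 4526 and 5008 CPM in co-cultured libraries and was not called, at -0.56 (adjusted p = 0.0623, edgeR). The complex III subunit MT-CYB had a log2 fold change of -0.86 (SE 0.31, adjusted p = 0.0608), and the complex V subunits MT-ATP6 and MT-ATP8 had -0.68 and -0.98 (adjusted p = 0.0508 and 0.0817, edgeR). MT-ATP8 had only 20 to 75 counts per library, and its reading frame overlaps that of MT-ATP6.

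The decrease was unequal along the mitochondrial genome. As a share of all reads on the 13 mRNAs, MT-CO1 made up 24.0%, 24.3% and 25.8% in control against 29.4% and 27.3% in co-cultured libraries, so the groups did not overlap. MT-ND4 went from 15.8% to 16.1% in control to 18.0% and 17.1%. In the other direction, MT-CO2 held 7.31%, 6.53% and 6.46% in control against 4.64% and 5.19% in co-cultured libraries, and MT-ND6 held 1.33%, 1.43% and 1.13% and then 0.630% and 0.742%. These shares are within a library and carry no test, and they do not show that any one mRNA stayed level.

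The count of mitochondrial calls depended on single libraries, while the direction of all 13 did not. Without control replicate 1 the median was -0.59 and 12 were called, without control replicate 2 or 3 the calls numbered 10 and 13, and without co-cultured replicate 1 or 2 they numbered 1 and 4. The share of all genes called moved too, to 49.5% without control replicate 1, 25.3% and 25.9% without control replicate 2 or 3, and 12.8% and 14.2% without co-cultured replicate 1 or 2, against 33.4% with every library. DESeq2 called 5. The share of unmapped reads was higher in both co-cultured libraries, and its part in these values was not tested.

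**Figure D2:**
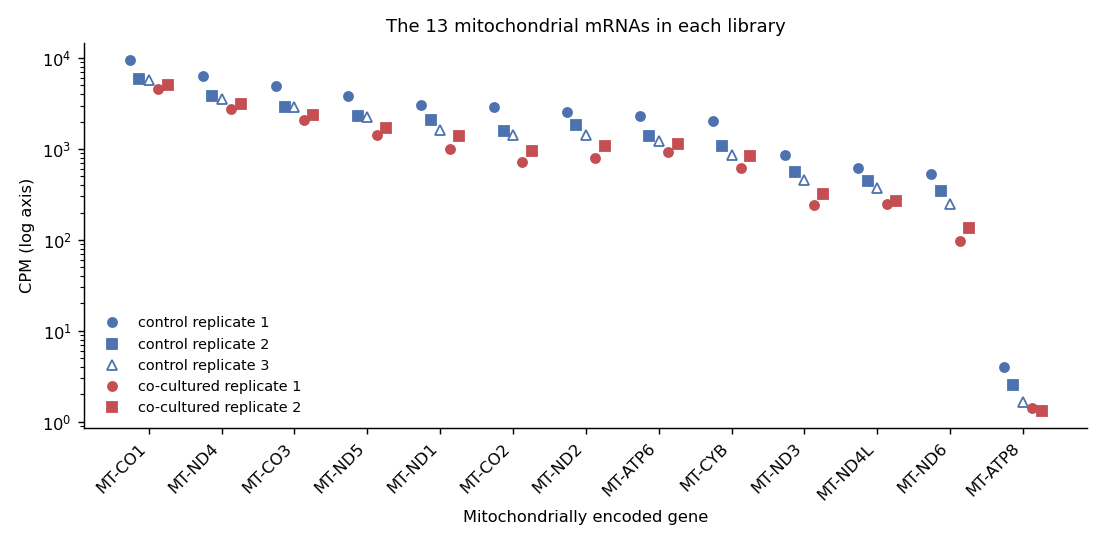
CPM of the 13 mitochondrial mRNAs (log y axis) in each library, with genes along the x axis in order of their mean in control. Blue marks are the 3 control and red marks the 2 co-cultured libraries, 1 mark per library. For each gene both red marks lie below the 3 blue marks, and control replicate 1 is the highest mark throughout.

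Of 17 genes for mitochondrial transcription and the handling of its RNA, 1 rose and 3 fell, or 23.5% called, below the 33.4% of all genes. TFB2M, which is needed with the polymerase to start mitochondrial transcription, had 17.8, 17.3 and 18.7 CPM in control and 9.29 and 10.4 CPM in co-cultured libraries, and its log2 fold change of -0.87 (SE 0.12, adjusted p = 0.000991, edgeR) held in all 5 fits with a library left out. MTERF2, a protein of the mitochondrial termination factor family, fell by 0.57 and FASTKD3, of a family of mitochondrial RNA-binding proteins, by 0.38, with calls kept in 4 and 2 of 5 such fits. PNPT1, the polynucleotide phosphorylase that degrades mitochondrial RNA, rose by 0.41 (adjusted p = 0.00967, edgeR) and kept its call in 3 of 5. The polymerase POLRMT and the packaging factor TFAM had log2 fold changes of -0.05 and 0.13 and were not called.

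The nuclear subunits, summed, kept a like level in the groups. Their counts made up 0.489% to 0.538% of gene counts in control against 0.502% and 0.516% in co-cultured libraries. The ratio of mitochondrial to nuclear subunit CPM was 7.16, 5.20 and 4.45 in control against 2.97 and 3.48 in co-cultured libraries, with no overlap. Per kb of exon the median nuclear gene stood at 17.8 CPM per kb in control and 18.4 in co-cultured libraries (79 genes with a length). The median mitochondrial gene stood at 1864 and 899.5 CPM per kb. Length was that of all annotated exons of a gene merged. It can exceed the length of the mRNA, so levels per kb of different genes are not strictly comparable.

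Which nuclear calls held depended on the libraries. The groups did not overlap for 44 of the 81 nuclear entries tested, or 54.3%, against 59.4% of all genes, and the 17 called were among these 44. With 1 library left out, 17 of them were called without control replicate 1, 9 without control replicate 2, 10 without control replicate 3, 7 without co-cultured replicate 1 and 6 without co-cultured replicate 2. The 5 genes that held in every such fit were NDUFA4L2, UQCRC1, ATP5F1D and NDUFS8 with higher and ATP5MC2 with lower values. Without control replicate 1, 34 nuclear genes were called higher and 8 lower, where 26.5% of all genes were called higher and 23.0% lower.

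**Figure D3:**
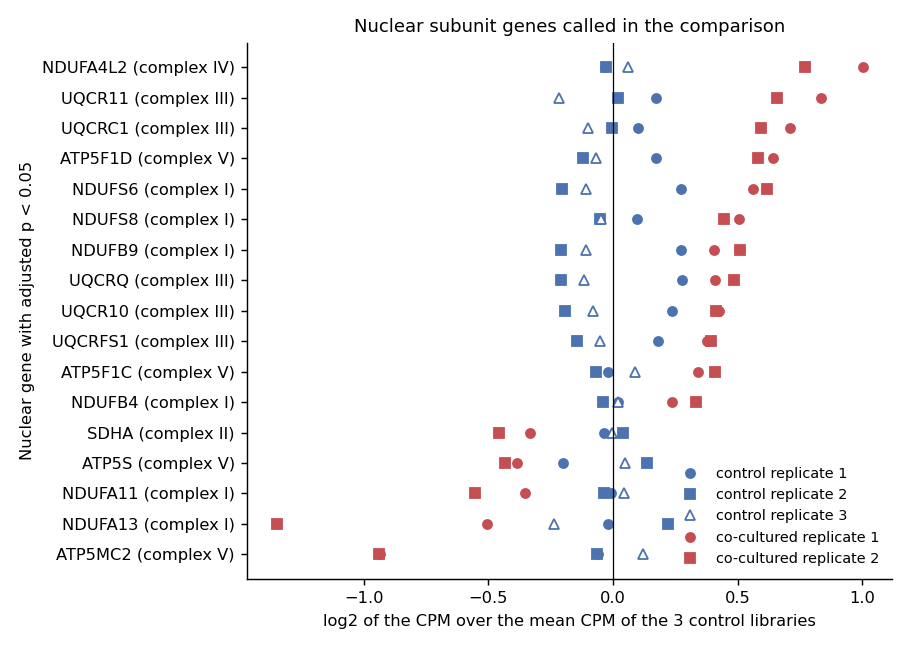
The 17 nuclear subunit genes with an adjusted p under 0.05 (y axis, with their complex), each library as the log2 of its CPM over the mean CPM of the 3 control libraries (x axis). Blue marks are control and red marks co-cultured libraries. Red marks lie right of all blue marks for 12 genes and left of them for 5, and those of NDUFA13 lie furthest apart from each other.

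In complex I, 4 of the 35 nuclear entries tested rose and 2 fell, and the median log2 fold change was 0.10. The 17.1% called was below the 33.4% of all genes. Of the 6 conserved core subunits tested, which carry the flavin and iron-sulfur centers, 1 rose. This was NDUFS8, an iron-sulfur protein on the path to ubiquinone, with 45.5, 41.0 and 41.2 CPM in control and 60.4 and 57.9 CPM in co-cultured libraries (log2 fold change 0.48, SE 0.08, adjusted p = 0.00283, edgeR). The lowest core value was that of NDUFV2, at -0.23, which was not called.

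The 29 supernumerary subunits of complex I, which surround the core, had 3 rises and 2 falls. NDUFS6, a zinc-binding subunit, rose from 77.2, 55.4 and 59.2 CPM to 94.4 and 98.0 CPM, a log2 fold change of 0.59 (SE 0.13, adjusted p = 0.00774, edgeR). NDUFB9 and NDUFB4, both of the membrane arm, rose by 0.46 and 0.28. NDUFB9 kept its call in 1 of the 5 fits with a library left out and NDUFB4 in 2.

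NDUFA13 and NDUFA11, accessory subunits of the membrane arm, were the complex I genes that fell. NDUFA13 had 75, 85 and 67 counts in control against 52 and 24 in co-cultured libraries, for a log2 difference of -0.84 (SE 0.29, adjusted p = 0.0474, edgeR) with a range of -1.34 to -0.50 when each library was left out. NDUFA11 had 12.7, 12.4 and 13.1 CPM in control and 9.95 and 8.65 CPM in co-cultured libraries, for a log2 difference of -0.45 (SE 0.13, adjusted p = 0.0292, edgeR). Neither was called by DESeq2, and NDUFA11 was called in 1 of 5 fits with a library left out. The nuclear complex I genes with the most reads, NDUFA10 and NDUFS5, had log2 fold changes of 0.08 and -0.11 and were not called. NDUFA3 had the highest fitted value, 0.79 (SE 0.41, adjusted p = 0.169), from 7 to 19 counts per library.

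Complex II, which is also an enzyme of the citric acid cycle, had 1 fall among its 4 genes, where 33.4% of all genes were called. SDHA, the flavoprotein that oxidizes succinate, had 168, 178 and 172 CPM in control and 137 and 126 CPM in co-cultured libraries. Its groups did not overlap, and the log2 fold change was -0.39 (SE 0.08, adjusted p = 0.00494, edgeR). The call was lost without co-cultured replicate 2, at an adjusted p of 0.0947 in edgeR. The iron-sulfur subunit SDHB had 19.5, 16.6 and 15.8 CPM in control and 20.2 and 22.1 CPM in co-cultured libraries, a difference of 0.28 that was not called (adjusted p = 0.112, edgeR). The membrane anchors SDHC and SDHD had log2 fold changes of -0.08 and -0.09.

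Complex III had 5 rises among 10 nuclear entries tested, the other 5 not called, with a median log2 fold change of 0.29, against 18.4% of all genes called higher. UQCRC1, a core protein on the matrix side, had 39.2, 36.5 and 34.1 CPM in control and 59.8 and 55.2 CPM in co-cultured libraries. The lowest co-cultured value was above every control value, and the log2 fold change was 0.65 (SE 0.09, adjusted p = 0.000904, edgeR). UQCR11, a small supernumerary subunit, rose from 7.98, 7.19 and 6.09 CPM to 12.6 and 11.2 CPM, a log2 fold change of 0.75 (SE 0.16, adjusted p = 0.00671, edgeR).

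The Rieske iron-sulfur protein UQCRFS1, which passes electrons to the cytochrome c branch, rose from 61.0, 48.7 and 51.9 CPM to 69.9 and 70.7 CPM (log2 fold change 0.38, SE 0.10, adjusted p = 0.0184, edgeR). The small subunits UQCRQ and UQCR10 rose by 0.45 and 0.42. Without control replicate 2 or 3, 2 of the 10 were called higher, where 14.5% and 14.8% of all genes were. Without co-cultured replicate 1 or 2, the median log2 fold change of the 10 was 0.25 and 0.33. UQCRB, which drew the most reads, and UQCRH, the acidic hinge protein, had log2 fold changes of 0.07 and 0.02. The intronless copy UQCRHL held 8.0%, 11.0% and 10.5% of the reads of UQCRH and UQCRHL in control against 8.37% and 9.25% in co-cultured libraries, with overlapping groups, and its reads may be shared with UQCRH. The core protein UQCRC2 had a primary and a patch entry, with 7 to 19 and 12 to 30 counts per library, and neither was called. Reads that mapped to both were counted on neither, so these counts may not give the level of UQCRC2. With the 2 entries summed, complex III had 5 rises among 9 tested and a median log2 fold change of 0.38.

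Of 3 subunits of the chain that the name rule does not hold, the mobile electron carrier and its docking partner rose. CYCS, cytochrome c, had 353, 234 and 244 CPM in control and 484 and 487 CPM in co-cultured libraries (log2 fold change 0.81, SE 0.16, adjusted p = 0.00431, edgeR), and held in every fit with a library left out. CYC1, the heme protein of complex III, rose by 0.50 (SE 0.12, adjusted p = 0.0108, edgeR) and kept its call in 3 of 5 such fits. NDUFAB1, the acyl carrier protein within complex I, had 0.14 and was not called.

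In complex IV, 1 of 13 nuclear entries tested rose, 12 were not called, and the median log2 fold change was 0.02. The 7.69% called was below the share over all genes. The gene that rose was NDUFA4L2 (chr12:57234903-57240715, minus strand), a paralog of NDUFA4 known as a target of hypoxia-inducible factors. It had 10.3, 10.3 and 11.0 CPM in control and 21.0 and 17.9 CPM in co-cultured libraries, and its log2 fold change of 0.89 was the highest of all 94 entries (SE 0.12, adjusted p = 0.000888, edgeR). NDUFA4 had 144, 97.2 and 106 CPM in control and 123 and 118 CPM in co-cultured libraries, for a log2 difference of 0.06 with overlapping groups (adjusted p = 0.790, edgeR).

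Of the reads on this pair, NDUFA4L2 held 6.64% in control replicate 1 (95% exact binomial interval 5.76% to 7.61%), 9.57% in replicate 2 (8.30% to 11.0%) and 9.33% in replicate 3 (8.17% to 10.6%). In co-cultured replicates 1 and 2 it held 14.6% (13.3% to 16.0%) and 13.2% (11.7% to 14.7%). The intervals of the groups did not overlap, and they cover counting error only. NDUFA4 held the larger share in each library.

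The classic oxygen-regulated pair of complex IV did not show such a balance at this depth. COX4I1 had 136, 118 and 122 CPM in control and 126 and 128 CPM in co-cultured libraries, for a log2 difference of 0.02 (SE 0.08, adjusted p = 0.888, edgeR). COX4I2, its paralog in lung, had 1, 1 and 13 counts in control against 6 and 4 in co-cultured libraries and was too low to be tested. Its share of the pair was 0.0389%, 0.0467% and 0.542% in control against 0.259% and 0.205% in co-cultured libraries, so the control values lay on both sides of the co-cultured ones.

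**Figure D4:**
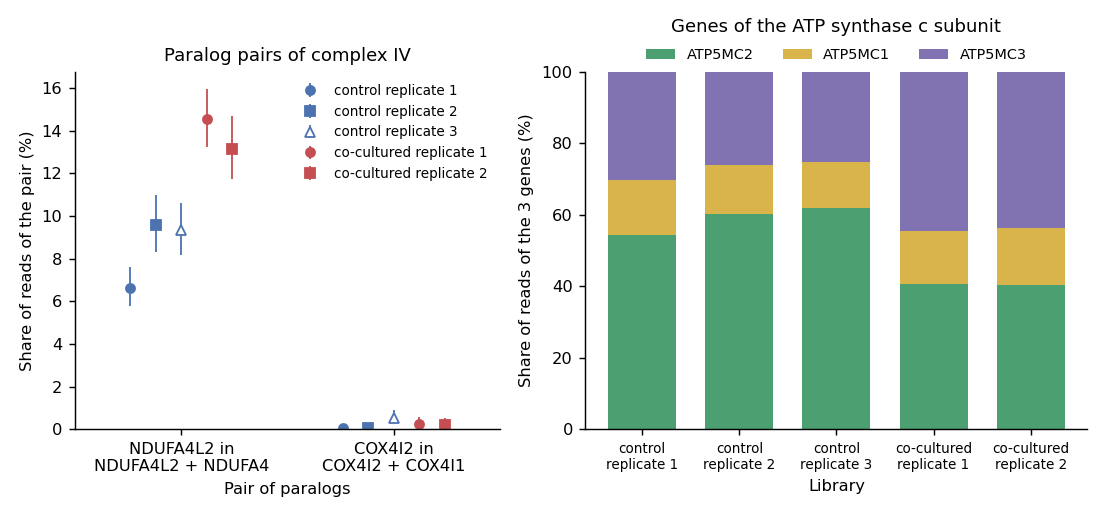
Left, the share of reads held by NDUFA4L2 and by COX4I2 in their paralog pairs (y axis in %), 1 mark per library with 95% exact binomial intervals, blue for control and red for co-cultured libraries. Right, the share of reads of the 3 genes of the ATP synthase c subunit (y axis in %) in each library. NDUFA4L2 holds 6.64% to 9.57% in control and 13.2% to 14.6% in co-cultured libraries, COX4I2 holds at most 0.542%, and ATP5MC2 holds 54.4% to 61.8% in control and 40.3% to 40.7% in co-cultured libraries.

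The remaining complex IV genes showed little. COX5B, a zinc-binding subunit, and COX8A, the ubiquitous form of subunit VIII, had log2 fold changes of 0.37 and 0.36 (adjusted p = 0.0836 and 0.128, edgeR), and COX7B had 0.26. The values of COX6C, COX5A, COX7A2 and COX7A2L ran from -0.16 to -0.08, and those of COX6A1, COX6B1 and COX7C were within 0.02 of 0. COX6B2, the testis form of COX6B1, had 0 to 13 counts and was not tested. Without control replicate 1, 5 of the 13 were called higher, against 26.5% of all genes.

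In complex V, 2 of 19 nuclear entries tested rose and 2 fell, and their median log2 fold change was 0.08. The 21.1% called was again below 33.4%. The rises were both in the central stalk of the catalytic F1 part. Of the 5 F1 subunits, the beta subunit ATP5F1B and the alpha subunit ATP5F1A drew the most reads. They had log2 fold changes of 0.17 and -0.13. ATP5F1D, the delta subunit of the central stalk, rose from 24.4, 19.9 and 20.6 CPM to 33.7 and 32.4 CPM (log2 fold change 0.61, SE 0.11, adjusted p = 0.00349, edgeR). ATP5F1C, the gamma subunit of the rotor, rose from 111, 107 and 119 CPM to 142 and 149 CPM (0.37, SE 0.08, adjusted p = 0.00674, edgeR). The call of ATP5F1C was lost without either co-cultured replicate.

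Among the other 14 entries of complex V, 2 fell and 12 were not called. ATP5S, named for coupling factor B, fell by 0.41 (SE 0.11, adjusted p = 0.0189, edgeR) and kept its call in 1 of 5 fits with a library left out. ATP5ME, subunit e of the membrane part, had -0.35 (adjusted p = 0.0531), and ATP5PD, subunit d of the peripheral stalk, had 0.33 (adjusted p = 0.0589, edgeR), neither of which was called.

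The fall with the smallest p of all entries was that of ATP5MC2, 1 of 3 nuclear genes for the c subunit, which forms the rotating ring in the membrane. ATP5MC2 had 133, 133 and 151 CPM in control and 72.7 and 72.5 CPM in co-cultured libraries. Both co-cultured values lay well below the control range, and the log2 fold change was -0.94 (SE 0.09, adjusted p = 0.000122, edgeR), with a range of -0.97 to -0.87 when each library was left out. ATP5MC1 had 37.0, 30.9 and 31.4 CPM in control and 26.1 and 28.7 CPM in co-cultured libraries, and ATP5MC3 had 74.6, 57.5 and 61.9 CPM and then 79.9 and 78.7 CPM. Neither was called, with log2 fold changes of -0.27 (adjusted p = 0.0933) and 0.29 (adjusted p = 0.0664, edgeR).

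Of the reads on these 3 genes, ATP5MC2 held 54.4%, 60.1% and 61.8% in control against 40.7% and 40.3% in co-cultured libraries. ATP5MC3 held 30.4%, 26.0% and 25.3% and then 44.7% and 43.7%, so the groups did not overlap for either gene. Per kb of exon the level of ATP5MC2 was 34.8 ± 2.58 CPM per kb in control (SD, n = 3) and 18.2 ± 0.0385 after co-culture (SD, n = 2). That of ATP5MC3 was 9.53 ± 1.31 and 11.7 ± 0.123 CPM per kb in the same groups. Since the lengths merge all annotated exons, these values compare groups within a gene rather than the genes with each other. The summed level of the 3 genes was 245, 221 and 244 CPM in control and 179 and 179.9 CPM in co-cultured libraries. These sums and shares were not tested.

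The 3 genes encode the same mature protein. In GENCODE transcripts the last 75 codons before the stop specify identical residues in each pair of genes (75 of 75), while 203 of 228 bases, stop included, are shared between ATP5MC1 and ATP5MC2, and 185 of 228 between ATP5MC3 and either of them. That stretch is shown for the gene that fell and for ATP5MC1, with exons joined, 5′ to 3′, and the 25 bases that differ in capitals. It lies at chr17:48895222-48895769 on the plus strand for ATP5MC1 and at chr12:53665314-53669260 on the minus strand for ATP5MC2 (GRCh38), introns included. Reads from such stretches can be hard to place, and reads that mapped to several places (7.05% to 7.75% of all reads) were not counted on any gene.
ATP5MC1: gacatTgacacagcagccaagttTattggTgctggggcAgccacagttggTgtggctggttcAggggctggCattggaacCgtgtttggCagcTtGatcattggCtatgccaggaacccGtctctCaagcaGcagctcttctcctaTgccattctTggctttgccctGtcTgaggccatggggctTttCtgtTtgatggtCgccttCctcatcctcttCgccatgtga
ATP5MC2: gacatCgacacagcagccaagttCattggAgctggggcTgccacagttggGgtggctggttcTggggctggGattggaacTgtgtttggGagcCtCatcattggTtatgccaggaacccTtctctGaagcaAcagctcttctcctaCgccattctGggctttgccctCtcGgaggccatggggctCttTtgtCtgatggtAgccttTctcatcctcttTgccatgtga

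The 4 entries too low to be tested were COX4I2 and COX6B2, the read-through ATP5MF-PTCD1 with 0 to 3 counts, and the primary entry of NDUFA6 with 0 or 1 count. A patch entry of NDUFA6 held 36 to 51 counts and was not called, at 0.40 (SE 0.24, adjusted p = 0.220, edgeR). Reads that mapped to both entries were counted on neither, so these counts may not give the level of NDUFA6.

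Assembly factors, which build the complexes without staying in them, moved both ways. Of 16 for complex I, 3 rose and 2 fell, and of 6 for complex III, 1 rose and 2 fell. For complex II 1 of 4 and for complex IV 3 of 20 tested rose, and the others were not called. Calls made up 31.3% of the list for complex I, 15.0% for complex IV, 1 of 4 for complex II and 3 of 6 for complex III, against 33.4% of all genes. The 4 for the ATP synthase had adjusted p-values of 0.169 to 0.987 in edgeR. NDUFAF6, a complex I assembly factor, fell from 83.2, 88.3 and 90.2 CPM to 52.9 and 55.7 CPM (log2 fold change -0.68, SE 0.08, adjusted p = 0.000347, edgeR). NDUFAF4, which acts in the same process, rose from 25.5, 21.5 and 20.5 CPM to 35.2 and 38.6 CPM (0.72, SE 0.12, adjusted p = 0.00183, edgeR). Both held in every fit with a library left out. BCS1L, the translocase that inserts the Rieske protein into complex III, fell by 0.53 (adjusted p = 0.00783, edgeR) with its call kept in 3 of 5 fits, whereas the Rieske gene itself rose, with its call kept in 1 of 5. UQCC1 fell by 0.31 and UQCC2 rose by 0.29, both factors for the synthesis of cytochrome b. COX10, a heme A synthesis enzyme for complex IV, rose by 0.39, TACO1, an activator of MT-CO1 translation, by 0.36 and SDHAF3, an assembly factor of complex II, by 0.49. COX20, a chaperone of MT-CO2, rose by 0.30 but had -0.16 when reads were counted without regard to strand. Each call of these last 6 genes held in 1 of 5 fits with a library left out.

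Of 8 regulators of nuclear subunit genes, 4 rose and 1 fell, against 18.4% of all genes called higher and 15.0% lower. PPARGC1A, the coactivator that drives mitochondrial biogenesis, had 17.4, 11.2 and 8.81 CPM in control and 34.5 and 36.8 CPM in co-cultured libraries. The groups did not overlap, and the log2 fold change was 1.52 (SE 0.22, adjusted p = 0.00116, edgeR). Its partner ESRRA, an orphan nuclear receptor, rose by 0.68 and the activator NRF1 by 0.53, with calls kept in 3 and 4 of 5 fits with a library left out. YY1 rose by 0.23, and GABPA, an ETS-family activator of these genes, fell by 0.29, each with its call kept in 1 of 5 fits with a library left out.

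Of 10 mitochondrial or metabolic genes linked to low oxygen, a list chosen with earlier results of these data known, 9 rose and 1 was not called, against 18.4% of all genes called higher. The choice of this list is no independent evidence of its direction. EPAS1 and HIF1A, alpha subunits of hypoxia-inducible factors, had log2 fold changes of 1.48 and 1.08. LDHA, which turns pyruvate to lactate, had 467, 524 and 585 CPM in control and 1712 and 1424 CPM in co-cultured libraries (log2 fold change 1.58, SE 0.12, adjusted p = 4.73e-05, edgeR). LONP1, the matrix protease that degrades COX4I1 at low oxygen, rose by 0.96, and HIGD1A, a small inner-membrane protein that binds complexes of the chain, by 0.97. PDK3 and PDK1, kinases that hold back the entry of pyruvate into the citric acid cycle, rose by 0.83 and 0.64, and BNIP3 and BNIP3L, receptors for the removal of mitochondria, by 1.12 and 1.07. The call of PDK1 held in 2 of 5 fits with a library left out. ISCU, the scaffold for iron-sulfur clusters, had -0.14 and was not called.

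Promoter sequence was at hand in RefSeq (GRCh38.p14) for 64 of the 83 nuclear members with a primary entry, as the 250 bases before and 50 after the first start listed for each gene. That start was not always at the edge of the annotated gene. For NDUFS3 and COX7A2L, among others, the window lay inside the gene, and for NDUFA5 outside it. Such windows were searched as they were listed. Both strands were searched for the letters CGCATGCGC (the core bound by NRF1), CCGGAAGT (the ETS site bound by GABPA), AAGATGGC (the core bound by YY1) and ACGTG (the core of the hypoxia response element, which also lies within some E-box motifs). These were found in 10, 9, 11 and 17 of the 64, or 15.6%, 14.1%, 17.2% and 26.6%, and in 2.10%, 4.44%, 3.03% and 21.6% of 27305 promoters of the same length. Of 9 members that rose, they were found in 3, 2, 1 and 2, and of 4 that fell in 1, 1, 0 and 2.

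The promoters of UQCR11 and ATP5MC2 are shown because these had the largest rise and the largest fall among the called genes with a sequence. Capitals mark the searched letters. That of UQCR11 (chr19:1605413-1605712, minus strand) holds the ETS letters and ACGTG on both strands at 1 place, and that of ATP5MC2 (chr12:53676034-53676333, minus strand) holds the NRF1 letters 41 bases before the start and ACGTG once. A match is a description of letters and not of a bound site.
UQCR11: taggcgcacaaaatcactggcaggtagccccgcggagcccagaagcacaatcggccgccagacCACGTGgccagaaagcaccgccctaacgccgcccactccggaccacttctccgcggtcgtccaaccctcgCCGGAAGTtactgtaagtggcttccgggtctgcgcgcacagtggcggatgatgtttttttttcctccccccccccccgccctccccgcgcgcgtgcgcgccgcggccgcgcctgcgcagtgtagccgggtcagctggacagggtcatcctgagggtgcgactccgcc
ATP5MC2: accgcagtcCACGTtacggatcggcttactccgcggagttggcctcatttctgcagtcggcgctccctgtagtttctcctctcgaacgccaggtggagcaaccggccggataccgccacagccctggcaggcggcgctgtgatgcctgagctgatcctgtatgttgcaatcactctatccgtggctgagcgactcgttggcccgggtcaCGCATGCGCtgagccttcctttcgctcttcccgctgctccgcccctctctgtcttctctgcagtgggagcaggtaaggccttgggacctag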

How the data were processed

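RNA-Seq of 3 control and 2 co-cultured libraries was used. Per the labels, the authors used CASAVA 1.8, STAR 2.6.1b and GRCh38, and deposited for each library the number of reads per gene, as counts without normalization, in the layout of STAR with a column that ignores strand and 1 for each strand. The identifiers matched GENCODE release 29, with further patch entries. The deposited table of the comparison holds the authors' own normalized means, fold changes and p-values, which were not used, and only its gene names were read. Subunit genes that this table does not name were not members.

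Counts of the strand expected of the directional kit (92.3% to 93.1% of reads on genes) were taken. In R 4.3.3, low genes were dropped with filterByExpr (edgeR 4.0.16), libraries were scaled by TMM, and groups were compared by the quasi-likelihood test of edgeR, with p-values adjusted by Benjamini-Hochberg over 20360 genes. Standard errors are the log2 fold change over the square root of F. A count of 3, 0.157 to 0.194 CPM, was the floor. For 3 libraries and 2, the smallest exact permutation p is 0.1. No pair of replicates agreed within sampling noise. The fit was tested on simulated data.

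Alternatives were normalization by median ratios, by upper quartiles or on nuclear genes, DESeq2 1.42.0, filters of at least 1 count in any and at least 10 counts in every library, unstranded counts, leaving out each library, a replicate block and, added after seeing the data, patch entries of NDUFA6 and UQCRC2 summed with the primary ones. Members and lists were chosen with earlier results of these data known. Genes named are the mitochondrial members, the paralogs, in each complex the 2 highest and 2 lowest log2 fold changes and the 2 with the highest CPM, members called with an absolute log2 fold change above 0.5, and the 3 smallest p-values of each list. Other named genes were chosen after their values were seen. Plots were drawn with matplotlib 3.10.9.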

Additional observations from a re-analysis of the deposited data

How the results depend on the processing

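Across 14 alternatives, 918 of 1075 values of single genes kept their direction and their side of the threshold, 94 lost and 43 gained a call, and 20 changed sign. The counts of subunits higher and lower, 12 and 13, ran from 4 to 34 and from 4 to 20 with each library left out, the highest of both without control replicate 1. The calls over all genes ran from 2734 to 9897 in these fits, against 6809, with the highest without the same library. DESeq2 gave 8 lower, with 2520 of all genes lower against 3059. Upper-quartile normalization gave 21 lower. It moved the median of all genes from -0.03 to -0.11 and the calls from 3750 higher and 3059 lower to 3076 and 3929. The number past an absolute log2 fold change of 1, 4, ran from 1 to 9, and the nuclear median of 0.08 from 0.033 to 0.18, in the same fits, and was 0.0023 under upper-quartile normalization. The rise of the NDUFA4L2 share, 5.35 percentage points, was 7.59 without regard to strand. The causes were not tested.

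Deviations of same-numbered libraries from their group means had correlations of -0.11 and -0.07. With 2 co-cultured libraries these deviations mirror each other, so the check cannot decide whether the replicate numbers pair the samples. With the replicate block, in which control replicate 3 carries no weight in the contrast, subunits called higher numbered 9 and lower 16, 8 passed the log2 threshold of 1, and 4824 genes were called in all.

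Values that changed sign were of genes not called, apart from COX20 at -0.16 without regard to strand. Under upper-quartile normalization NDUFA10 had -0.0020, UQCRH -0.056, UQCRB -0.013, COX4I1 -0.059, COX6B1 -0.058 and NDUFA4 -0.016. COX6A1 had 0.0065 by DESeq2, 0.0066 by median-ratio and 0.047 by unstranded counts. With a library left out, log2 fold changes of NDUFS5 ran from -0.17 to 0.00016, of UQCRC2 from -0.80 to 0.015, of UQCRH from -0.012 to 0.067, of COX7A2 from -0.22 to 0.0050, of COX6A1 from -0.11 to 0.18, of COX4I1 from -0.020 to 0.084, of COX6B1 from -0.077 to 0.12 and of NDUFA4 from -0.050 to 0.25.

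COX4I2, COX6B2, NDUFA3, NDUFA13, UQCRC2 and MT-ATP8 had few counts in each library, which limits what their values show. Why these counts were low was not tested. With 2 co-cultured libraries, leaving out 1 assumes that the lone library varies like the control group.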

Other observations

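Some subunit names were counted but are absent from the table of names and so were not members. Of these 7, NDUFS1, COX7B2, NDUFC2-KCTD14, COX8C and COX6A2 were listed at 0 counts in every library, and ATP5IF1 and COX7A1 had 1 count in 1 library. COX7A1, the heart and muscle form of a complex IV subunit, had 130, 96 and 120 reads in control against 43 and 33 in co-cultured libraries when reads were counted without regard to strand, so these reads lie on the opposite strand. The complex IV assembly factor SURF1 was also listed at 0 in every library. The primary entry of NDUFA6 likewise had 0 or 1 count, while its patch entry held 36 to 51. Whether a listed count of 0 reflects absent RNA was not tested.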
